A study of Mus musculus with 43 samples.

Results

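The 10 genes described here encode 7 matrix metalloproteinases (Mmp2, Mmp3, Mmp8, Mmp9, Mmp12, Mmp13 and Mmp14) and 3 tissue inhibitors of metalloproteinases (Timp1, Timp2 and Timp3). They were taken by name from the 24475 genes of the expression table. All 10 were found, and all 10 passed the filter on low counts that left 15979 genes for testing.

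Matrix metalloproteinases are zinc enzymes that cut collagens, elastin and other proteins of the extracellular matrix, and also cytokines and cell surface proteins. Most are made as inactive proenzymes that another protease has to cut, and TIMP proteins bind the active enzyme and block it. In the lung they are best known from emphysema, fibrosis and airway remodelling, where macrophages, neutrophils, fibroblasts and epithelium are each a source. RNA levels say nothing of how much of an enzyme was active.

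RNA sequencing was done on lung of female mice on a mixed 129S6/C57BL/6 background, in 43 libraries of 7 groups. Their age is given as 8 to 12 weeks, which cannot be the age of the sequenced lungs after 19 weeks of exposure. House dust mite extract (HDM) was given by the nose 3 times a week. Of the groups on HDM for 19 weeks, 4 also had antibodies, namely anti-IL-33+anti-IL4Ra (n = 5, called the combination), anti-IL4Ra+isotype (n = 7), anti-IL-33+isotype (n = 6), and the isotype control antibody (n = 7). The other groups had HDM without antibody for 11 weeks (HDM11 weeks, n = 6) or for 19 weeks (HDM 19 weeks, n = 7), or saline without antibody (n = 5). Itepekimab is the anti-IL-33 antibody and dupilumab the anti-IL4Ra antibody, and both were tested in mice that carry human sequence for IL-4, IL-33 and the extracellular part of the IL-4 receptor alpha chain. IL-33 is an alarm cytokine of damaged epithelium, and that receptor chain serves both IL-4 and IL-13. The sources do not say whether the mice without antibody carried the human alleles, at which of 3 named times the antibodies began (day -3, 4 weeks or 11 weeks), or how long saline was given. The design text names 4, 15 and 19 weeks of HDM where the labels have 11 and 19, and the labels were followed. No label says that each library is a separate mouse. Each was taken as one, and p-values measure the spread between libraries.

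Total counts per library ranged over 11.9 to 26.7 M (a median of 17.9 M). Levels are CPM, counts scaled to a common library size, and a gene was called when its adjusted p was under 0.05. The lung identity held, since none of 7 lung epithelial markers was at 0 in any library. Several libraries stood apart. Squamous epithelium markers summed to 12753 CPM in saline replicate 3 and 3929 CPM in HDM 19 weeks replicate 1, against medians of 4.20 CPM at 19 weeks and 6.11 CPM in saline. Erythroid markers summed to 21613 and 11840 CPM in combination replicates 1 and 8 and to 192946 and 29229 CPM in anti-IL4Ra replicates 2 and 6, with group medians of 2516 CPM for the combination and 1758 CPM for anti-IL4Ra. In 9 libraries the level of a gene climbed steeply with the GC content of its transcript, by more than 0.75 on the log2 scale for each 10 GC points relative to the mean library. They were 3 of 5 combination, 3 of 7 anti-IL4Ra, 2 of 6 anti-IL-33 and 1 of 7 HDM 19 weeks libraries, with none in the isotype, HDM11 weeks and saline groups. In bulk lung RNA, fewer cells of a type and less RNA per cell cannot be told apart.

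Of the genes in the set, 4 lie within 1 stretch of chromosome 9, which also holds other MMP genes, all on the plus strand. In the order Mmp13, Mmp12, Mmp3 and Mmp8 they span 296.0 kb (GRCm38.p6, the assembly that mm10 names, chr9:7272514-7568486). The sequences at their annotated starts are shown because these neighbours went different ways in the data: Mmp13 and Mmp12 rose with HDM, Mmp3 was lower, and Mmp8 was called higher in the combination group. The Timp1 window stands beside them as the inhibitor that rose. Each sequence is taken from RefSeq, runs 5′ to 3′ on the plus strand and holds the 250 bases before an annotated start. The windows searched for motifs also held the 50 bases after it, and 8 of the 10 genes had 1 or more windows. Capitals mark matches to TGANTCA, the core of the site bound by the AP-1 (Fos and Jun) factors known for controlling collagenase and stromelysin genes.
Mmp13 chr9:7272264-7272513: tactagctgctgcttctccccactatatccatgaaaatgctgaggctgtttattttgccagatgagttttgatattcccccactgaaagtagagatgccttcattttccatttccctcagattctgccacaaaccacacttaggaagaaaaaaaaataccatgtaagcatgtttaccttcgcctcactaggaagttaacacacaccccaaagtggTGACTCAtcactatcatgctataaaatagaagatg
Mmp12, first window chr9:7344147-7344396: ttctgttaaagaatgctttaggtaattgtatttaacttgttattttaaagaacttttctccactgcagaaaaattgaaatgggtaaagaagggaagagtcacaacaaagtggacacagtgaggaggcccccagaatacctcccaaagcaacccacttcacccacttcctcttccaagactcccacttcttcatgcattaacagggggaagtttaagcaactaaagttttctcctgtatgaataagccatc
Mmp12, second window chr9:7347124-7347373: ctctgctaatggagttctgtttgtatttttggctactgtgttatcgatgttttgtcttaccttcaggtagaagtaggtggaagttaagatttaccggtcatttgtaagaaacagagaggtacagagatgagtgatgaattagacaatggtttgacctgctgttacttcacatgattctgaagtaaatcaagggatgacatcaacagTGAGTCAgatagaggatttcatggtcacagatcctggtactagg
Mmp3 chr9:7445572-7445821: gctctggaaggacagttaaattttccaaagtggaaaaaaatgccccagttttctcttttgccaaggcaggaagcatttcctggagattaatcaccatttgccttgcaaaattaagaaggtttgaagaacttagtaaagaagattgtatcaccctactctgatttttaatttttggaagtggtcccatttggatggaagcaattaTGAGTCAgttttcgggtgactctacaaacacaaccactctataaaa
Mmp8 chr9:7558179-7558428: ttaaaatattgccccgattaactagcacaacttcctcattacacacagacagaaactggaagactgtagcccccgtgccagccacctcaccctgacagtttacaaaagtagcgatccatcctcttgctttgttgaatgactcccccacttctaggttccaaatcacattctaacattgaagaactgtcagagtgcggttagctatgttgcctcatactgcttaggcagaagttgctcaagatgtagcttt
Timp1 chrX:20869916-20870165: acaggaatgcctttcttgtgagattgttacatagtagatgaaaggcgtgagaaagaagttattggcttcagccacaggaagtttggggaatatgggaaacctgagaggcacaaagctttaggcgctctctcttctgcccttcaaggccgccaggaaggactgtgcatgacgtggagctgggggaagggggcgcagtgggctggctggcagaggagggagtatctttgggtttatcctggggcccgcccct

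The AP-1 letters, read on both strands, began at position -35 in Mmp13, at -44 in the second Mmp12 window and at -46 in Mmp3, the annotated start being position 1. No match lay in the first Mmp12 window or in the windows of Mmp8, Mmp14, Timp1, Timp2 and Timp3. The search counted only the exact pattern, so sites with variant letters would be missed. Of 32851 such windows of mouse genes, 7.8% held the letters. The match was thus shared by Mmp12 and Mmp13, which rose with HDM, and by Mmp3, which did not. A match describes letters in a window and shows no binding.

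In lungs exposed to HDM, Mmp12 was 148- and 144-fold and Timp1 26.5- and 18.8-fold higher than in saline lungs, and Mmp13 and Mmp14 were higher too, at 11 and 19 weeks. Mmp2 was called higher and Timp3 and Mmp3 lower at 19 weeks only, while Mmp8, Mmp9 and Timp2 were not called at either time. Counted together, 4 of the 10 genes were called higher and 0 lower at 11 weeks (Mmp12, Mmp13, Mmp14 and Timp1), where 8.65% of all genes tested were called higher and 6.74% lower. At 19 weeks 5 were higher (with Mmp2) and 2 lower (Mmp3 and Timp3), where 19.2% of all genes were higher and 15.6% lower. Groups did not overlap for 8 members at 11 weeks and 6 at 19 weeks, where they did not overlap for 21.6% and 28.6% of all genes. Between 19 and 11 weeks none was called, where 0.106% of all genes were. The median log2 fold change of the members at 19 weeks was 0.92, and that of all genes 0.01. The members were chosen with earlier results of these data known, so these counts and medians describe them and are no test against all genes. At 11 weeks the count was 7 or 8 in place of 4 in the fit of HDM11 weeks and saline mice alone, in limma voom, with a GC slope term and without the steep libraries, since Timp3, Mmp2 and 1 or 2 of Mmp3 and Timp2 were then called too.

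Mmp12 encodes macrophage elastase, an enzyme of macrophages that cuts elastin and is linked to emphysema (Gene ID 17381, chr9:7344397-7360461). Its lowest, median and highest levels were 617, 931 and 1396 CPM in HDM11 weeks mice and 321, 789 and 2048 CPM in HDM 19 weeks mice. The 5 saline mice had 7.83, 9.58, 5.35, 5.68 and 3.47 CPM. Every HDM mouse was far above every saline mouse. The log2 fold change was 7.21 ± 0.76 (SE), or 148-fold, at 11 weeks (adjusted p = 4.64e-09), and 7.17 ± 0.75, or 144-fold, at 19 weeks (adjusted p = 2.96e-09). At 19 weeks against 11 weeks it was -0.04 ± 0.51 (adjusted p = 0.974). Counts of Mmp12 and Mmp3 carry decimals in most libraries, with 6.98% of libraries holding a whole number, while Timp3 was whole in 76.7%, Mmp14 in 81.4% and the other members in all. A decimal can come from reads split between genes, which was not tested, and the levels of Mmp12 and Mmp3 are uncertain to that extent.

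Mmp13, mouse interstitial collagenase, opens the collagen triple helix (Gene ID 17386, chr9:7272514-7283333). The lowest, median and highest levels were 5.94, 13.4 and 55.1 CPM in HDM11 weeks mice and 2.61, 6.17 and 17.3 CPM in HDM 19 weeks mice, while saline mice had 1.06, 1.38, 0.449, 1.87 and 0.462 CPM. The groups did not overlap at either time, though the HDM11 weeks mice were spread widely. The log2 fold change was 4.48 ± 0.93 at 11 weeks (adjusted p = 0.000573) and 2.94 ± 0.86 at 19 weeks (adjusted p = 0.0079).

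Mmp14 encodes a collagenase anchored in the cell membrane, which also activates proMmp2 together with Timp2 (Gene ID 17387, chr14:54431598-54442456). It had 85.6, 121 and 162 CPM (lowest, median, highest) in HDM11 weeks mice and 97.3, 203 and 313 CPM in HDM 19 weeks mice, against 44.0, 45.4, 48.0, 49.2 and 43.4 CPM in saline mice. The saline values lay close together and below all HDM values. The fold change was 2.65-fold at 11 weeks (log2 fold change 1.40 ± 0.32, adjusted p = 0.00148) and 4.28-fold at 19 weeks (log2 2.10 ± 0.32, adjusted p = 3.51e-06).

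Mmp2, gelatinase A of fibroblasts and other stromal cells (Gene ID 17390, chr8:92827290-92853421), had 94.8, 115 and 132 CPM in HDM11 weeks mice and 99.97, 150.1 and 237 CPM in HDM 19 weeks mice (lowest, median, highest). Saline mice had 69.6, 57.3, 85.8, 73.4 and 69.3 CPM. The groups did not overlap at either time, but the test called Mmp2 only at 19 weeks (log2 1.19 ± 0.27, adjusted p = 0.000879) and not at 11 weeks (log2 0.67 ± 0.27, adjusted p = 0.0968). The difference between the times was 0.52 ± 0.25 on the log2 scale (adjusted p = 0.346).

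Mmp3, stromelysin 1 of stromal cells, cuts many matrix proteins and activates other proMMPs (Gene ID 17392, chr9:7445822-7455975). It lay lower under HDM: 8.68, 17.3 and 21.0 CPM in HDM11 weeks mice and 8.13, 13.8 and 28.2 CPM in HDM 19 weeks mice, against 34.2, 27.4, 28.3, 31.5 and 24.8 CPM in saline mice. All HDM11 weeks mice were below all saline mice, while HDM 19 weeks mice overlapped them. The log2 fold change was -0.84 ± 0.31 at 11 weeks (adjusted p = 0.0621) and -0.90 ± 0.30 at 19 weeks (adjusted p = 0.0197). The call at 19 weeks was lost when HDM 19 weeks replicate 2 was left out (adjusted p = 0.0507) and when the GC slope was added as a covariate (adjusted p = 0.0959).

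Neutrophil collagenase Mmp8 (Gene ID 17394, chr9:7558429-7568486) and gelatinase B Mmp9 (Gene ID 17395, chr2:164940326-164955850) are both stored in neutrophil granules, and Mmp9 is also made by macrophages and epithelium. Mmp8 had a median of 6.79 CPM at 11 weeks, 7.09 CPM at 19 weeks and 3.70 CPM in saline mice, and all 3 groups overlapped. Mmp9 had medians of 16.1, 22.6 and 15.2 CPM in the same groups, which overlapped too. Neither gene was called at 11 weeks (adjusted p = 0.452 for Mmp8 and 0.955 for Mmp9) or at 19 weeks (0.429 and 0.217). Of 8 neutrophil markers none was called at either time, and their sum had medians of 276 CPM at 11 weeks, 228 CPM at 19 weeks and 113 CPM in saline mice. Of 5 genes tested from a list of neutrophil precursor markers (Camp, Ngp, Ltf, Mpo and Chil1), 2 were called higher and 1 lower at 11 weeks. At 19 weeks 2 were higher. Which cells of the lung made these transcripts was not tested.

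Of the 3 inhibitors, Timp1 rose at both times, and Timp3 was lower at both times but called only at 19 weeks. Timp1, the inducible TIMP secreted by many cell types in inflammation (Gene ID 21857, chrX:20870166-20874737), had 38.3, 114 and 268 CPM in HDM11 weeks mice and 59.7, 86.0 and 134 CPM in HDM 19 weeks mice (lowest, median, highest). Saline mice had 7.87, 3.53, 4.73, 2.88 and 4.62 CPM. The groups were well apart, with log2 fold changes of 4.73 ± 0.64 at 11 weeks (26.5-fold, adjusted p = 8.39e-07) and 4.23 ± 0.62 at 19 weeks (18.8-fold, adjusted p = 1.97e-06).

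Timp3, which is bound to the matrix and also inhibits ADAM17 and other ADAM proteases (Gene ID 21859, chr10:86300412-86349505), lay lower. It had 300.4, 434 and 446 CPM in HDM11 weeks mice and 249.9, 343 and 493 CPM in HDM 19 weeks mice, against 888, 946, 660.5, 949.9 and 797 CPM in saline mice. No HDM mouse reached the lowest saline mouse. The log2 fold change was -1.29 ± 0.36 at 19 weeks (adjusted p = 0.00554). At 11 weeks it was -1.05 ± 0.38 and narrowly missed the threshold (adjusted p = 0.052). The fit shares its estimate of spread over all 7 groups. The SD of log2 CPM of Timp3 was 0.22 in HDM11 weeks and in saline mice. It was 1.05 under anti-IL-33 and 1.17 in the combination group. Without the steep libraries, none of which was HDM11 weeks or saline, the 11-week difference was -1.06 and called (adjusted p = 8.50e-06).

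The level of Timp3 moved with the GC slope of the library. Taken as deviations from group means over 43 libraries, Pearson's r was -0.894 and Spearman's rho -0.874 (permutation within groups, adjusted p = 6e-05 for both over 12 relations, a floor set by drawing 100000 permutations). Without the 2 libraries of most extreme slope r was -0.882. The mean slope was -0.36 at 11 weeks and 0.16 at 19 weeks, against -0.60 in saline libraries, where single libraries ranged from -0.82 to -0.34. The lowest slope of all, -0.95, was that of combination replicate 2. With a slope term the 19-week difference of Timp3 was -0.44 on the log2 scale and not called (adjusted p = 0.0705). Without the steep libraries it was -1.26 and called (adjusted p = 3.61e-07). With the slope term Timp3 was called lower than saline in the HDM11 weeks (-0.78) and isotype (-0.77) groups. It was also called lower under anti-IL-33 (-0.84), anti-IL4Ra (-0.56, adjusted p = 0.0252) and the combination (-1.10).

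Timp2, the TIMP that many tissues make steadily and that takes part in proMmp2 activation (Gene ID 21858, chr11:118301061-118355411), was not called at either time. Its median was 367 CPM at 11 weeks, 453 CPM at 19 weeks and 489 CPM in saline mice. HDM11 weeks mice were all below saline mice, with 347 to 406 CPM against 438 to 516 CPM, but the difference of -0.36 ± 0.19 on the log2 scale was not called (adjusted p = 0.217). At 19 weeks it was -0.02 ± 0.18 (adjusted p = 0.942).

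**Figure D1:**
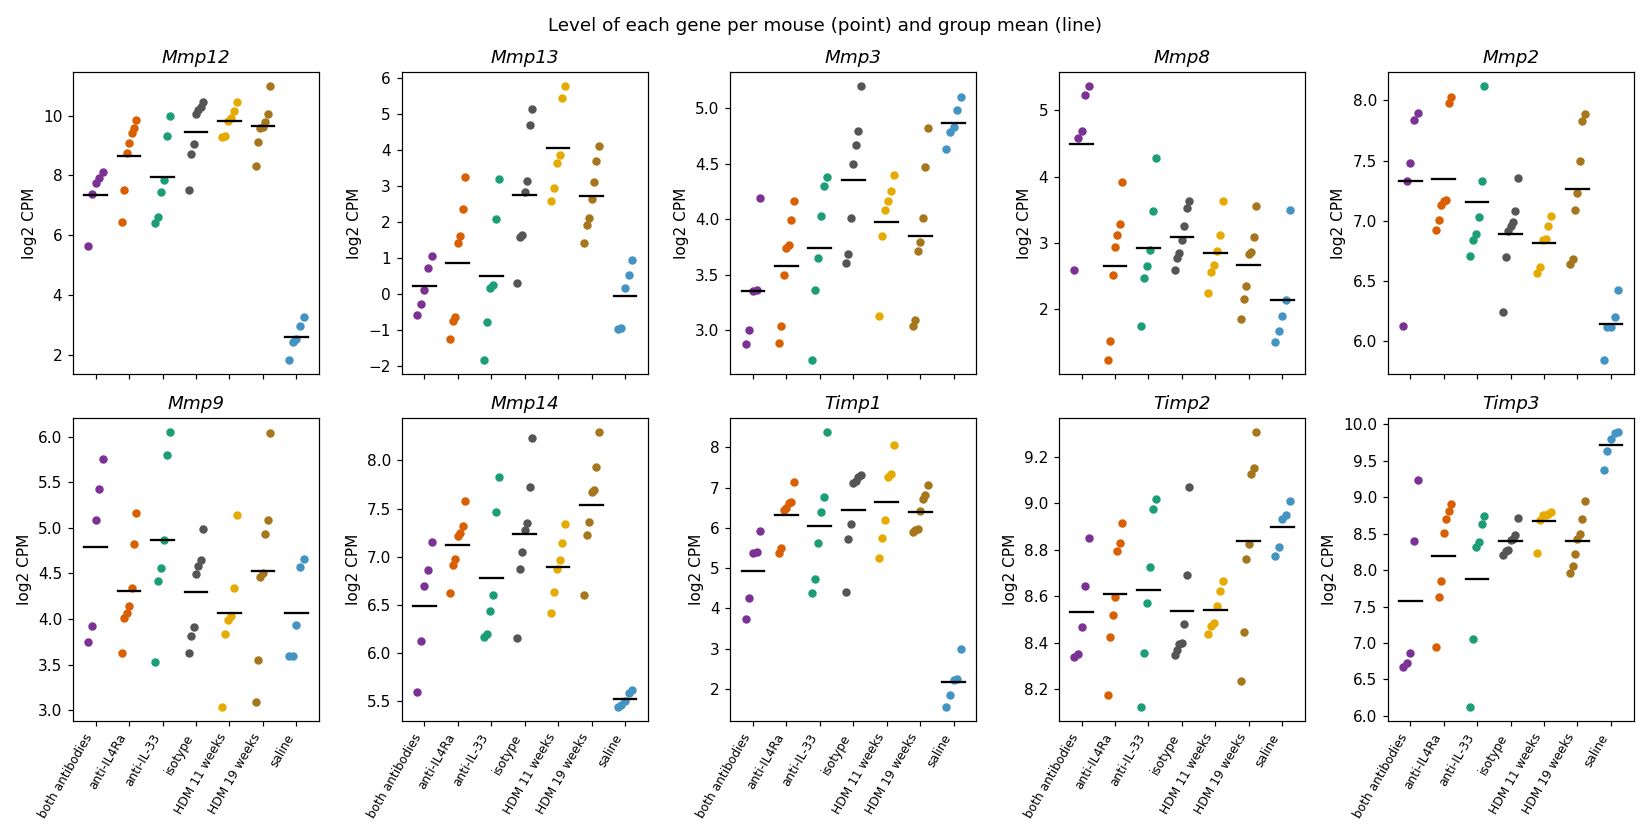
Level of each of the 10 genes as log2 CPM (y axis, own scale per gene) in each library (point), with the mean of each of the 7 groups (line). Mmp12, Mmp14 and Timp1 were higher in every HDM11 weeks and HDM 19 weeks mouse than in any saline mouse, Timp3 was lower, and Mmp8 was high in 4 of 5 combination mice.

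Between isotype mice and HDM 19 weeks mice without antibody none of the 10 genes was called in edgeR. The largest difference was 0.58 ± 0.68 on the log2 scale for Mmp13 (95% interval -0.80 to 1.97, adjusted p = 0.977). No gene of the table was called there either (0%), and 341 of 15979 had an unadjusted p under 0.05. Against saline the isotype group had 5 members higher and 1 lower, with 13% and 12.4% of all genes called. They were Mmp12 (log2 7.06 ± 0.75), Timp1 (4.47 ± 0.63), Mmp13 (3.52 ± 0.88), Mmp14 (1.84 ± 0.32), Mmp2 (0.78 ± 0.27) and Timp3 (-1.32 ± 0.36). The call of Mmp2 was lost without saline replicate 1, 2, 4 or 5 or isotype replicate 3. Mmp3, called lower at 19 weeks without antibody, was not called here (-0.42 ± 0.30, adjusted p = 0.327).

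**Figure D2:**
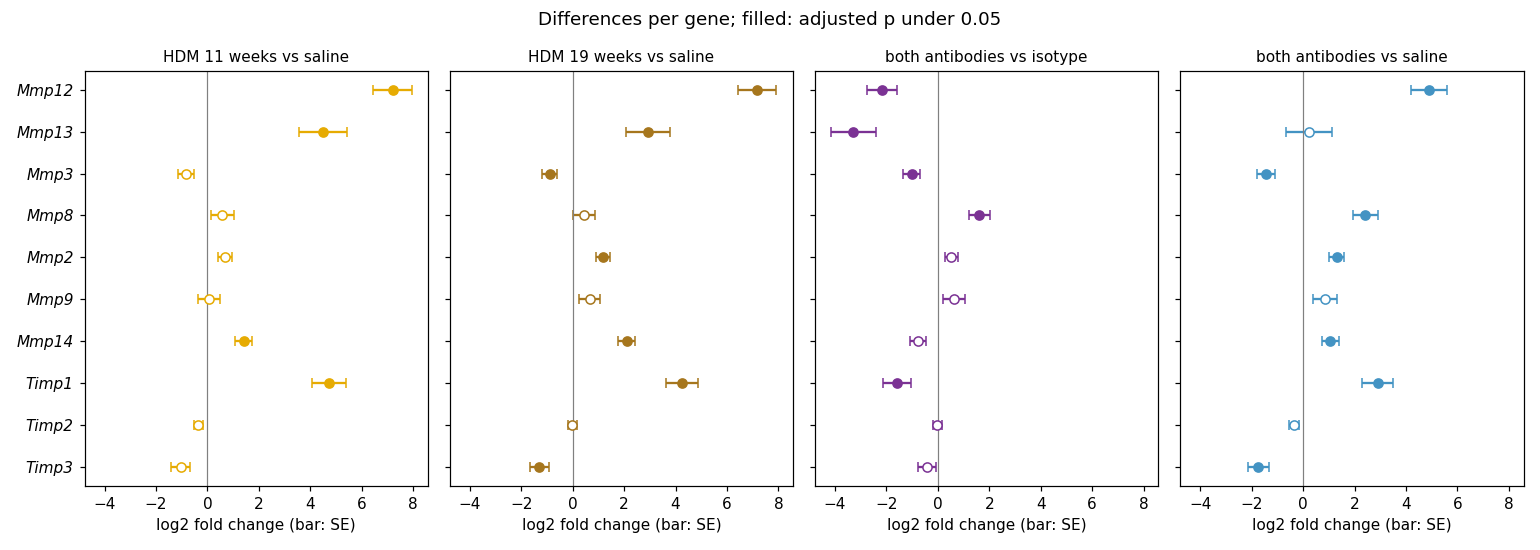
Log2 fold change of each gene (point) with its standard error (bar) in 4 comparisons, filled where the adjusted p was under 0.05. Mmp12 is the gene farthest to the right against saline at both times, and in the combination group against isotype Mmp8 lies to the right of 0 while Mmp12, Mmp13, Mmp3 and Timp1 lie to the left.

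The antibody comparisons ask how much of this pattern was left under blockade of IL-33, of IL-4Rα or of both. In the combination group against isotype, 4 members were called lower (Mmp12, Mmp13, Mmp3 and Timp1) and 1 higher (Mmp8), where 6.32% of all genes were lower and 12.6% higher. Groups overlapped for all 10 members, while they did not overlap for 4.39% of all genes. These calls rest on few mice: none of the 5 was called without combination replicate 1, and 3 were without isotype replicate 8 or 2 without combination replicate 8. Without the steep libraries Mmp8 and Timp1 stayed called and Mmp12, Mmp13 and Mmp3 did not.

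Mmp12 had 167, 277, 214, 49.6 and 239 CPM in the combination mice, against 184, 1056 and 1388 CPM (lowest, median, highest) in isotype mice. Only the lowest isotype mouse lay in the range of the combination mice. The fold change was 0.222 (log2 -2.17 ± 0.58, adjusted p = 0.0172), and the call was lost without combination replicate 1 (adjusted p = 0.0728) and without the steep libraries, which left 2 combination mice. Against saline, Mmp12 was 29.7-fold higher in the combination group (log2 4.89 ± 0.68, adjusted p = 1.38e-06), with no overlap.

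Mmp13 had 1.03, 2.00, 1.60, 0.607 and 0.773 CPM in the combination mice, against 1.18, 7.06 and 35.0 CPM in isotype mice. Its fold change was 0.102 (log2 -3.29 ± 0.88, adjusted p = 0.0172), and it was not called without combination replicate 1 or 8, in limma voom, or without the steep libraries (log2 -2.70, adjusted p = 0.155). Against saline its difference was 0.23 ± 0.89 on the log2 scale, with a 95% interval of -1.57 to 2.02 (adjusted p = 0.841).

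Timp1 had 42.3, 19.0, 13.3, 60.3 and 41.8 CPM in the combination mice, against 21.3, 138 and 158 CPM in isotype mice. The log2 fold change was -1.57 ± 0.54 (adjusted p = 0.0411), and the call was lost in 8 of 12 fits that left out 1 library, namely isotype replicates 1, 3, 4, 6 and 8 and combination replicates 1, 3 and 8. Timp1 was 7.47-fold above saline (log2 2.90 ± 0.60, adjusted p = 0.000406). Mmp3 had 7.92, 7.26, 18.2, 10.2 and 10.1 CPM in the combination mice and 12.1, 22.5 and 36.8 CPM in isotype mice, a log2 fold change of -1.02 ± 0.31 (adjusted p = 0.0289). The call of Mmp3 was lost without isotype replicate 8, without combination replicate 1 or 8, with a GC slope term (adjusted p = 0.0585), without the steep libraries (adjusted p = 0.257) and in the fit of both groups alone. That of Timp1 was also lost in limma voom and in the fit of both groups alone.

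Mmp14 missed the threshold at -0.78 ± 0.30 (adjusted p = 0.0608), with 104, 48.3, 69.6, 116 and 142 CPM in the combination mice and 71.4, 155 and 299.9 CPM in isotype mice. It was called with a GC slope term (log2 -1.08, adjusted p = 0.00797) and without the steep libraries (log2 -1.46, adjusted p = 0.0497). Mmp2 was not called (0.52 ± 0.26, adjusted p = 0.126), nor were Mmp9 (0.63 ± 0.41, adjusted p = 0.24), Timp2 (-0.01 ± 0.18, adjusted p = 0.955) and Timp3 (-0.42 ± 0.37, adjusted p = 0.373). Timp3 ranged from 102 to 604 CPM among the combination mice. The 3 steep libraries had 106, 116 and 102 CPM, and the other 2 had 604 and 337 CPM.

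Mmp8 went the other way. It had 37.6, 41.3, 25.6, 24.0 and 5.95 CPM in the combination mice, against 6.01, 8.20 and 12.4 CPM (lowest, median, highest) in isotype mice. Of the 5 combination mice, 4 lay above every mouse of the other 6 groups, whose highest value was 19.3 CPM in anti-IL-33 replicate 4, and replicate 8 lay below every isotype mouse. The fold change was 3.06 against isotype (log2 1.61 ± 0.42, adjusted p = 0.0155), not called without combination replicate 1 (adjusted p = 0.0722), and 5.35 against saline (log2 2.42 ± 0.48, adjusted p = 0.000233). Against anti-IL4Ra it was 3.64-fold and just missed the threshold (log2 1.87 ± 0.42, adjusted p = 0.0539), and against anti-IL-33 it was 3.07-fold (log2 1.62 ± 0.44, adjusted p = 0.375). The effect of both antibodies beyond the sum of their single effects was 1.87 ± 0.58 on the log2 scale for Mmp8 and not called (adjusted p = 0.995), as for every member and every gene (0% called, 321 genes at an unadjusted p under 0.05).

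The 8 neutrophil markers summed to 382, 237, 137, 252 and 313 CPM in combination mice, against 165, 241 and 465 CPM in isotype mice. Of the 8, Ly6g was called higher (log2 1.74 ± 0.38, adjusted p = 0.00711, with means of 3.01 and 0.897 CPM) and 7 were not called, and of 5 precursor markers tested none was. Within groups, over all 43 libraries, Mmp8 varied with the summed markers (r = 0.507, rho = 0.499, adjusted p = 0.00416 and 0.0044 by permutation), and Mmp9 more closely (r = 0.609, rho = 0.608, adjusted p = 0.0002 and 0.00036). Without the 2 libraries of most extreme marker sum, r was 0.430 and 0.567. The library with the highest sum, anti-IL-33 replicate 4 at 1848 CPM, also had the highest Mmp9 (66.1 CPM) and Timp1 (333 CPM) of all. The part of neutrophil number in the Mmp8 difference was not tested.

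**Figure D3:**
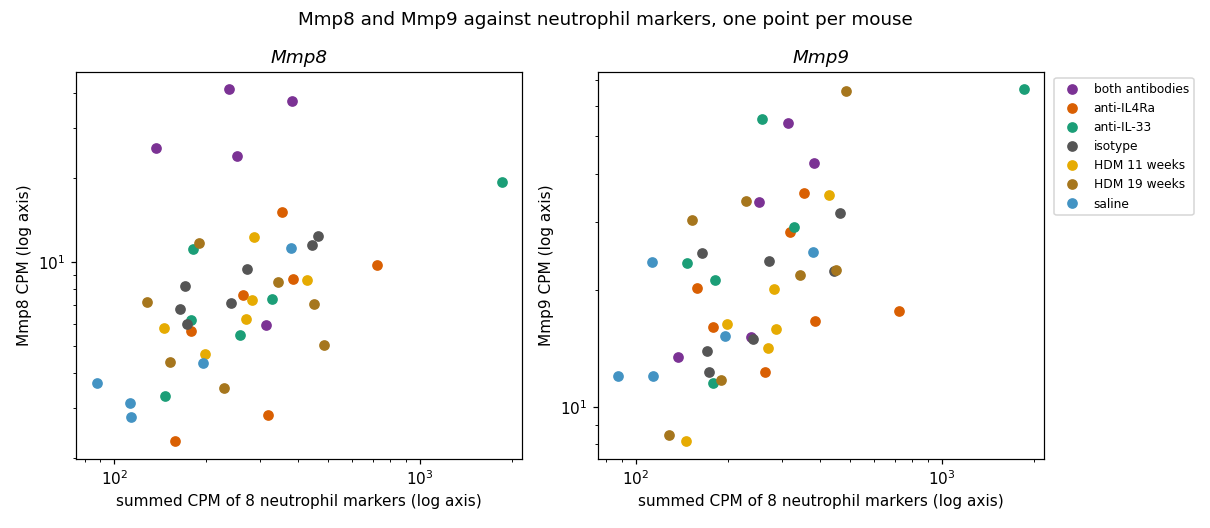
Mmp8 (left) and Mmp9 (right) in CPM against the summed CPM of 8 neutrophil markers, one point per library, all axes logarithmic. Of 5 combination mice, 4 lie above the other libraries in Mmp8 at marker sums of 137 to 382 CPM, inside the range of the isotype mice except for the lowest, while in Mmp9 they lie among the others.

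Either antibody with isotype left the members without a call against isotype alone, as it did all genes (0% called in edgeR). At an unadjusted p under 0.05 there were 2879 genes for anti-IL-33 and 2242 for anti-IL4Ra. Under anti-IL-33 Mmp12 had 85.1, 201 and 1013 CPM (lowest, median, highest), and under anti-IL4Ra it had 86.2, 547 and 925 CPM, with log2 fold changes of -1.19 ± 0.52 (adjusted p = 0.266) and -0.73 ± 0.49 (adjusted p = 0.514). Mmp13 had medians of 1.09 and 2.62 CPM and fold changes of -2.13 ± 0.76 (adjusted p = 0.246) and -1.93 ± 0.71 (adjusted p = 0.308). Timp1 differed by -0.02 ± 0.49 and -0.29 ± 0.47. The 95% intervals of Mmp12, -2.25 to -0.14 and -1.72 to 0.27, were wide. In limma voom Mmp12 and Mmp14 were called lower under anti-IL-33.

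Between the single antibodies no member was called (0% of all genes called, 409 at an unadjusted p under 0.05), which does not show that they were equal. The largest difference, anti-IL4Ra minus anti-IL-33, was -0.72 ± 0.40 for Mmp9, with an interval of -1.52 to 0.08 (adjusted p = 1). The combination against either single antibody had no member called, where 0.0438% of all genes were called against anti-IL-33 and 0.119% against anti-IL4Ra. Against saline, each single antibody group had 4 members higher (Mmp12, Mmp2, Mmp14 and Timp1) and 2 lower (Mmp3 and Timp3). For anti-IL-33, Mmp2 (adjusted p = 0.0843) and Mmp3 (adjusted p = 0.0954) were not called with a GC slope term, nor was Mmp3 without the steep libraries (adjusted p = 0.0682). In these comparisons 25.2% and 17.9% of all genes were called for anti-IL-33, and 25.9% and 18.6% for anti-IL4Ra. Mmp12 was 58.5-fold above saline with anti-IL-33 and 80.8-fold with anti-IL4Ra, and Mmp13 was not called in either (adjusted p = 0.171 and 0.111). The combination group against saline had 5 higher (those 4 and Mmp8) and the same 2 lower, where 27.8% and 20.3% of all genes were called, and without the steep libraries 3 of the 7 were called (Mmp12, Mmp8 and Timp3). With a GC slope term Mmp14 was 0.44 higher than saline on the log2 scale in the combination group and not called (adjusted p = 0.284). The antibody comparisons with isotype share the same 7 isotype libraries, and those with saline the same 5 saline libraries.

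Per length of exon, Mmp12 held on average the largest share of the metalloproteinase RNA in mice given HDM without antibody, with isotype antibody alone or with anti-IL4Ra. Its mean share of the summed CPM per kb of the 7 genes was 52.3% in isotype mice (26.7 to 69.2%), 61.1% in HDM11 weeks mice (50.4 to 68.2%) and 51.9% in HDM 19 weeks mice (28.5 to 76.4%), all above the saline mice, where it was 1.65% (0.991 to 2.48%). In saline mice Mmp2 led with 39.5%, followed by Mmp3 with 30.4% and Mmp14 with 14.5%. Under anti-IL4Ra Mmp12 held 41.5% (8.64 to 61.7%), against 32.7% for Mmp2. Under anti-IL-33 it held 32.1% (7.96 to 57.4%), against 35.0% for Mmp2. Combination mice had a Mmp12 share of 22.6% (5.61 to 41.1%), and Mmp2 led with 41.9%. Mmp8 held 9.94% there, against 2.08% in the isotype group.

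Among the inhibitors, Timp1 held 23.4% of the summed CPM per kb in combination mice, 42.8% in isotype mice, 44.3% in HDM11 weeks mice and 37.7% in HDM 19 weeks mice, against 2.32% in saline mice. Timp2 and Timp3 held the rest, 53.0% and 44.7% in saline mice. The sum of the metalloproteinases was 210 ± 50.9 CPM per kb in HDM11 weeks mice and 230.1 ± 74.4 in HDM 19 weeks mice, against 53.4 ± 3.46 in saline mice (SD). The sum of the inhibitors was 287 ± 93.6 and 264 ± 25.8, against 232 ± 22.7. The log2 ratio of the sums was -0.42 ± 0.34 and -0.25 ± 0.48 under HDM, against -2.12 ± 0.19 in saline mice, and it was -0.47 ± 0.34 in combination mice, against -0.34 ± 0.55 in isotype mice. Both sums were lower in the combination group than in the isotype group, at 121 ± 19.5 against 208 ± 73.2 for the metalloproteinases and 167 ± 23.7 against 257 ± 73.5 for the inhibitors. With the length of the longest transcript in place of the exon length, Mmp12 held 66.8% at 11 weeks and 2.26% in saline mice. The order of some genes changed with that length. In saline mice Timp3 then held 57.1% and Timp2 41.2%, and under anti-IL-33 Mmp12 held 36.9% and Mmp2 28.8%.

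**Figure D4:**
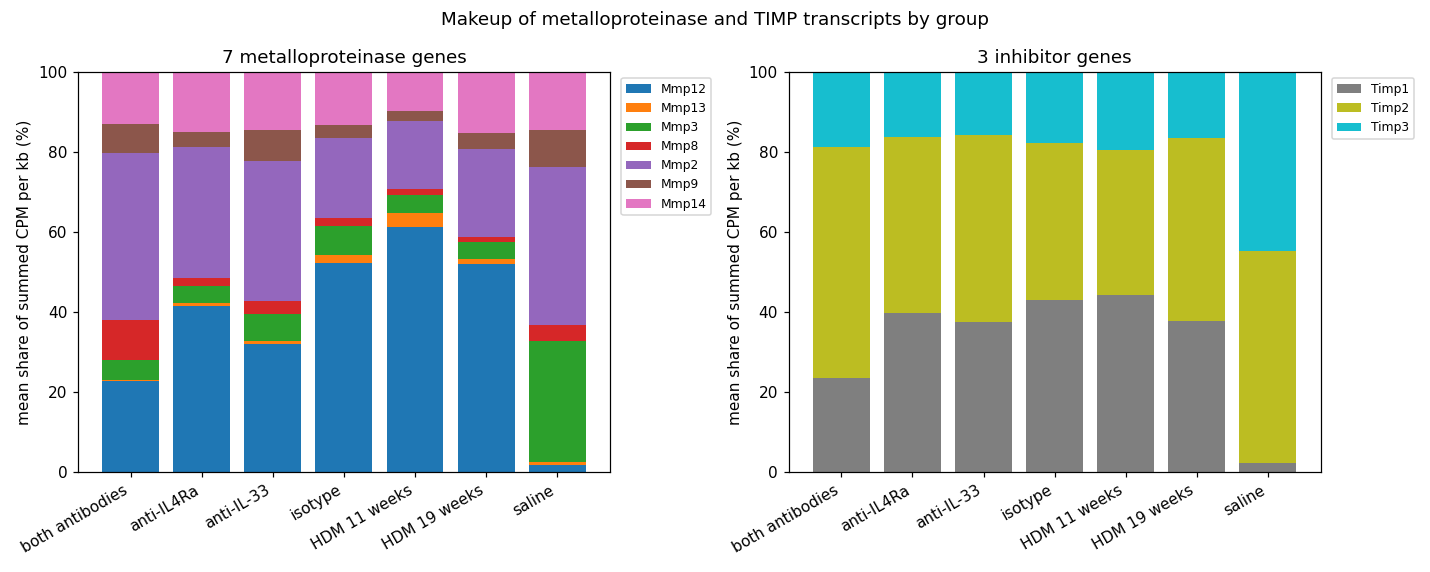
Mean share (%) of each gene in the summed CPM per kb of exon of the 7 metalloproteinase genes (left) and of the 3 inhibitor genes (right) in the 7 groups. The Mmp12 band takes 61.1% at 11 weeks, against 22.6% in the combination group and 1.65% in saline mice, and the Timp1 band 44.3% at 11 weeks, against 2.32% in saline mice.

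As deviations from group means over 43 libraries, which share depth and GC slope, Mmp12 and Mmp13 had the highest correlation of any pair (r = 0.806), followed by Mmp14 and Timp2 (0.746). Timp3 and Mmp9 ran opposite (r = -0.707), and both moved with the GC slope, Mmp9 upward (r = 0.784, rho = 0.809, adjusted p = 6e-05). Mmp2 (r = 0.672) and Mmp14 (r = 0.564) followed the slope too, with adjusted p of 0.00075 and 0.00151, while Timp1 did less (r = 0.259, adjusted p = 0.123). Mmp12 (r = -0.404, adjusted p = 0.0341), Mmp13 (r = -0.421, adjusted p = 0.0132) and Mmp3 (r = -0.373, adjusted p = 0.0341) ran downward with the slope. These 3 were called lower in the combination group, where 3 of 5 libraries were steep and the mean slope was 0.33, against -0.13 in the isotype group. With a GC slope term Mmp12 (log2 -1.91, adjusted p = 0.0189) and Mmp13 (log2 -3.25, adjusted p = 0.0150) were still called lower against isotype. Mmp3 was not (adjusted p = 0.0585). The transcript GC fraction was 0.528 (Timp1) to 0.553 (Mmp2) for Mmp2, Mmp9, Mmp14, Timp1 and Timp2, all with a positive r with the slope. It was 0.403 (Mmp12) to 0.468 (Timp3) for Mmp12, Mmp13, Mmp8, Mmp3 and Timp3, all with a negative r. The part of GC content in the correlations between members was not tested.

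**Figure D5:**
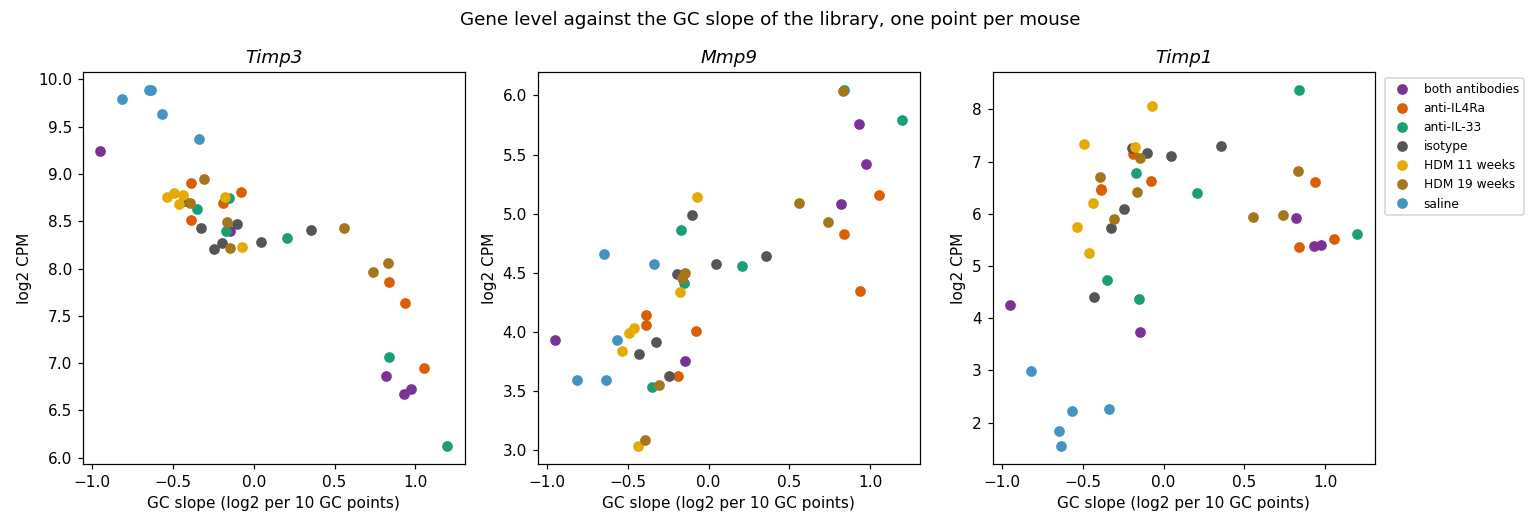
Log2 CPM of Timp3, Mmp9 and Timp1 against the GC slope of each library (log2 units per 10 GC points), one point per library. Timp3 falls and Mmp9 climbs with the slope (r of deviations from group means -0.894 and 0.784), and Timp1 follows it less (0.259).

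By Pearson's r of log2 CPM over all 43 libraries and 15008 genes compared, the genes most like Mmp12 were Lhfpl2 (0.934), Rnf128 (0.928) and Fcgr2b (0.926), the last an inhibitory Fc receptor of macrophages and B cells. Those most like Mmp13 were Dhrs9 (0.880), Tmem26 (0.877) and C3ar1 (0.863), the receptor of complement C3a. Mmp14 was most like Col1a2 (0.937) and Col15a1 (0.929), both collagen chains, and Pgam1 (0.915). Timp1 was most like Osm (0.878), the cytokine oncostatin M, which is known to induce Timp1, then Adam8 (0.877) and Syt12 (0.875). By Spearman's rho Osm was the least like of these, at 0.711, against 0.775 for Adam8 and 0.735 for Syt12. Timp3, which moved with the GC slope, followed Prkci, Lmo7 and Map3k20 (0.974, 0.972 and 0.966). The nearest gene of Mmp3, Mmp8, Mmp2, Mmp9 and Timp2 lay at 0.737, 0.729, 0.877, 0.834 and 0.863. These r take in the differences between groups and between GC slopes of libraries, whose part was not tested.

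The wider protease network was read from fixed lists, also chosen with earlier results of these data known. Their counts and medians are thus description and no test. The median log2 fold change of all genes was 0.01 at 19 weeks against saline and 0.04 in the combination group against isotype. Of 16 further MMP genes 11 were tested, and 5 were higher and 1 lower at 19 weeks against saline, with 3 higher and 0 lower at 11 weeks. The median was 1.53 at 19 weeks and 0.61 in the combination group. Mmp19 averaged 380 ± 150.1 CPM at 19 weeks and 28.7 ± 2.40 CPM in saline mice (log2 3.73 ± 0.53, adjusted p = 1.21e-06). Mmp25, anchored in leukocyte membranes, was higher by 1.81 ± 0.29 on the log2 scale, as are the values that follow. In the combination group against isotype Mmp19 was lower (-2.11 ± 0.49, adjusted p = 0.0093), at 108 and 465 CPM, while Mmp15 (2.04 ± 0.55), Mmp28 (1.84 ± 0.52) and Mmp24 (1.54 ± 0.55) were higher.

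Among 26 ADAM and ADAMTS genes tested, 6 were higher and 3 lower at 19 weeks, near the 19.2% and 15.6% of all genes, and 0 higher and 6 lower in the combination group against isotype, with medians of -0.06 and -0.68. Adamts4, an aggrecanase, was 3.40 ± 0.51 higher at 19 weeks (11.4 against 1.07 CPM), and its change in the combination group was -2.19 ± 0.48 (2.45 against 11.2 CPM). Adam8, a leukocyte surface protease, was 2.71 ± 0.32 higher at 19 weeks. Of 3 inhibitors outside the TIMPs (medians -0.07 and -0.41), Reck, a membrane-bound MMP inhibitor, was lower at 19 weeks (12.7 ± 2.72 against 58.5 ± 11.3 CPM, log2 -2.20 ± 0.40), and the protease scavenger A2m was higher (21.9 ± 13.2 against 0.391 ± 0.421 CPM, log2 5.83 ± 1.23). A2m was lower in the combination group, at 0.484 ± 0.393 CPM against 26.1 ± 23.2 CPM in isotype mice (log2 -5.67 ± 1.23, adjusted p = 0.00711).

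Of 8 genes of the plasminogen system and MMP activation tested, 5 were higher and 0 lower at 19 weeks, among them the urokinase receptor Plaur (2.14 ± 0.31). In the combination group against isotype 3 were lower, with the urokinase gene Plau at 14.4 and 38.9 CPM (-1.42 ± 0.41), and Furin, a proprotein convertase that activates Mmp14, was higher (1.36 ± 0.45). The medians were 1.26 and -0.38. All 4 elastin-cutting cathepsins were higher at 19 weeks (median 2.13, and -1.44 in the combination group), from Ctsk (5.29 ± 0.53, 714 against 18.3 CPM) to Ctsb (2.07 ± 0.38). Of the cathepsins, Ctsk (-1.50 ± 0.44), Ctsl (-1.46 ± 0.38) and Ctsb (-1.43 ± 0.37) were lower in the combination group, and Ctss was not called.

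Of 12 matrix genes that are substrates of these enzymes, 9 were higher and 1 lower at 19 weeks (median 1.71, and -0.61 in the combination group). Spp1, osteopontin, was 5.53 ± 0.63 higher, Tnc, tenascin C, 2.81 ± 0.47, and Col1a1 2.55 ± 0.48, while Postn was lower (-1.09 ± 0.30). Against isotype, 4 were lower and 0 higher in the combination group, led by Fn1 (-1.85 ± 0.49) and Tnc (-1.84 ± 0.45). Of 13 cytokines and factors known to induce these genes, 9 were higher at 19 weeks (median 2.58, and -0.57 in the combination group). Among them were Il6 (3.79 ± 0.65), the AP-1 subunit Junb (3.11 ± 0.70) and Il13, whose cytokine signals through the receptor chain blocked here. Il13 averaged 2.91 CPM at 19 weeks and 0.0147 CPM in saline mice. The combination group had 1 called, the AP-1 subunit Fosb (1.42 ± 0.48 higher).

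Markers of several other cell types also differed between groups. Of 5 smooth muscle markers none was called at 19 weeks against saline, and 2 were higher in the combination group against isotype. Of 10 interstitial and monocyte-derived macrophage markers, 8 were higher and 2 lower at 19 weeks, and their sum had a median of 3310 CPM there (1872 to 5469) against 462 CPM in saline mice (387 to 728). Combination mice had a median sum of 2288 CPM (1723 to 2801), against 2879 CPM in isotype mice (1542 to 5825), and 1 of 10 was lower. The median log2 fold change of these 10 markers there was 0.24, against 0.04 for all genes, so the sum and the median went opposite ways. The sum of 8 alveolar macrophage markers had a median of 698 CPM in combination mice (388 to 1324), against 214 CPM in isotype mice (119 to 444), with 5 of 8 higher. Fabp1 was the alveolar macrophage marker at 0 in some libraries, 10 of 43. The fibroblast markers summed to a median of 2559 CPM in combination mice (1168 to 3684), against 2101 CPM in isotype mice (1520 to 2896), with 4 of 10 higher. At 19 weeks 2 of the fibroblast markers were higher and 5 lower, and 4 of 6 endothelial markers were lower, with a median sum of 907 CPM (566 to 1127) against 2126 CPM in saline mice (1781 to 2517). None of the macrophage markers other than Fabp1, and no fibroblast or endothelial marker, was at 0 in any library. Their part in the differences of Mmp12, Timp1 and the other members was not tested.

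Some members share ground with other genes, and the counting is not stated to use strand. Timp1 lies inside Syn1, Timp3 inside Syn3 and Mmp8 inside the lncRNA gene Gm31751, and Mmp2 and Timp2 overlap Gm45472 and Cep295nl. Reads of these partners may be among their counts.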

How the data were processed

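The authors deposited 1 table of expected counts, estimated numbers of reads per gene that need not be whole, for 24475 NCBI Gene IDs and 43 libraries. Per the labels' protocols, lung RNA was extracted with TRIzol and magnetic beads, DNase treated, and 500 ng was made into stranded mRNA libraries with 12 PCR cycles and read as single reads of 33 cycles. The genome build was mm10, per the submitters' processing notes, while the aligner, the counter and the use of strand in counting are not stated by any label or header. Of the values above 0, 76.8% were whole numbers, and 24375 Gene IDs had a symbol in RefSeq (GRCm38.p6). Short single reads place less surely on near-identical genes.

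Counts were rounded and tested with edgeR 4.0.16 (R 4.3.3, quasi-likelihood, robust) in 1 model over the 7 groups, with TMM scaling and edgeR's filter on low counts, which left 15979 genes. The Benjamini-Hochberg adjustment ran over all of them, SE is the log2 fold change divided by the root of F, and calls are at an adjusted p under 0.05. CPM use TMM library sizes. Levels between genes are CPM per kb of exon (GENCODE vM21). The GC slope of a library is the slope of its log2 CPM, relative to the mean library, on transcript GC content. Depth was 11.9 to 26.7 M counts per library. The fit was tested on simulated counts. DESeq2 1.42.0, limma 3.58.1 (voom) and other settings were the alternatives. Groups come from the treatment labels. The members and lists were chosen with earlier results of these data known, and some lists come from an earlier analysis. Genes named from the lists are among the 4 with the largest called changes each way, and for each member the 3 genes most like it. One Gene ID without a symbol held 0.341 to 23.4% of the counts of a library. The replicate numbers did not pair the libraries.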

Additional observations from a re-analysis of the deposited data

Results flagged for a closer look

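In 70 sets of 1 gene in 1 group, 2 libraries lay far from the others of their group, and chance flags about 1 set in 20. Mmp8 was 5.95 CPM in combination replicate 8, where the other 4 combination mice had 24.0 to 41.3 CPM. Timp3 was 300.4 CPM in HDM11 weeks replicate 9, where the other 5 mice had 411 to 446 CPM.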

How the results depend on the processing

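The calls of Mmp12, Mmp13, Mmp14 and Timp1 against saline at 11 and 19 weeks held in all 9 alternative settings and in each fit without 1 library. The 4 members called at 11 weeks became 8 with limma voom or with the compared groups alone, and 7 with a GC slope term or without the steep libraries. For the combination against isotype, the 5 calls became 3 without the steep libraries (Mmp8, Timp1 and, newly, Mmp14), 3 with the compared groups alone (Mmp12, Mmp8 and Mmp13), and 0 with a replicate block. Same-numbered libraries did not deviate together (median r -0.01 over 88 pairs, and 35.2% of pairs above 0.1), so this block rests on numbers alone. The 7 calls of the combination against saline became 3 without the steep libraries, which left 2 combination mice. Comparisons with 0 calls gained 2 with limma voom (anti-IL-33 against isotype, and combination against anti-IL-33). Combination against anti-IL-33 gained 1 without the steep libraries. Combination against anti-IL4Ra gained 4 with limma voom and 1 (Mmp8) with DESeq2, with no filter, with a GC slope term and without the steep libraries. The interaction gained 1 with limma voom. Leaving out 1 library gave 0 to 7 calls for the combination against isotype, 0 to 1 against anti-IL4Ra (1 without anti-IL4Ra replicate 2 or combination replicate 8), 6 to 7 at 19 weeks against saline, 5 to 6 for isotype and 6 to 7 for anti-IL-33 against saline.

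No called value changed sign. Of 81 member results called in no fit, 39 changed sign under some setting, among them Mmp9 for the combination against isotype (0.63, down to -0.51) and at 19 weeks against saline (0.66, down to -0.35). Sign changes among the results called in some fit were as follows. Without the steep libraries the uncalled log2 difference of Timp3 was 0.48 for the combination against isotype, 0.35 against anti-IL-33, 0.13 against anti-IL4Ra and 0.0053 for the interaction. That of Mmp9 was -0.13 against anti-IL4Ra and -0.30 against saline. With a GC slope term Mmp9 was -0.14 for anti-IL-33 and -0.31 for the combination against saline. Leaving out 1 library gave -0.104 to 0.0657 for Timp2 at 19 weeks against saline, -0.764 to 0.0520 for Timp3 in the combination against anti-IL-33, and -0.692 to 0.124 for Timp3 in the interaction. The cause of these changes was not tested. An alternative chosen after seeing the data, leaving out the Gene ID of highest count, moved no count of members by more than 1.5 times. At this depth Mmp13 in saline mice, at 0.449 to 1.87 CPM, rests on few counts, and intervals cover the spread between libraries.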
